A study of Rattus norvegicus with 16 samples.

Results

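The 10 core enzymes of mitochondrial fatty acid beta-oxidation, Acadvl, Acadl, Acadm, Acads, Hadha, Hadhb, Hadh, Echs1, Acaa2 and Etfdh, were taken by gene symbol out of 31141 rat genes. Each symbol matched 1 gene, and all 10 passed the filter on low values, as did 12119 genes in all. They were measured in 16 mRNA-seq libraries of the tibialis anterior, a leg muscle, of Wistar-Imamichi rats. DMD_KD is 6 libraries of rats with a mutated Dmd gene that ate MCTKD, DMD_ND is 6 libraries of Dmd-mutant rats that ate the normal diet, and WT_ND is 4 libraries of wild-type rats that ate the normal diet. Feeding ran from weaning to 9 months of age. The labels neither spell out MCTKD, in nutrition research a usual abbreviation for a medium-chain triglyceride ketogenic diet, nor name the Dmd allele, and no wild-type rats on MCTKD are among the groups. They also do not say that each library came from its own animal, so the spread behind each p-value is that between libraries and may be partly technical.

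Beta-oxidation shortens an activated fatty acid by repeating a cycle of dehydrogenation, hydration, a further dehydrogenation and thiolytic cleavage, and each turn releases acetyl-CoA. Different enzymes run the cycle at different chain lengths: membrane-bound enzymes take long chains as they enter the mitochondrion, and soluble matrix enzymes take the medium and short chains that remain. Dystrophin, which Dmd encodes, ties the cytoskeleton of the muscle fibre to the matrix around it, and muscle that lacks it degenerates and is repaired over and over. Long-chain fatty acids need the carnitine shuttle to reach the enzymes, whereas medium-chain fatty acids can largely enter without it. Here Acadvl, Acadl, Hadha and Hadhb are the 4 long-chain enzymes, Acadm, Acads, Echs1, Hadh and Acaa2 are the 5 medium- and short-chain enzymes, and Etfdh, which passes electrons to ubiquinone from dehydrogenases of every chain length, belongs to neither class. The division is a simplification, because substrate ranges overlap and Acadl also takes branched chains.

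The 2 subunits of the trifunctional protein, Hadha and Hadhb, are transcribed away from each other, and the stretch between them is shown because the pair had nearly parallel levels. In the RefSeq promoter table (build GRCr8), which had an entry for 8 of the 10 enzymes, Hadhb started at 31907500 on the minus strand and Hadha at 31907801 on the plus strand of chromosome 6, 301 bases apart. In the deposited table's annotation (mRatBN7.2) 3086 bases lie between the same pair of genes, so the distance depends on the annotation. Their promoter windows share 200 bases at chr6:31907551-31907750, with 53.5% G and C, printed here on the plus strand.
Hadha and Hadhb, shared promoter: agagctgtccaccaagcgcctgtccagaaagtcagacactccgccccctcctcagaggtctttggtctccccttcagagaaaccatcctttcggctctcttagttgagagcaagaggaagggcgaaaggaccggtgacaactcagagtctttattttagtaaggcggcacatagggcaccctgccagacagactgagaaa
Of 27457 promoters in the table, 1959 (7.135%) had an opposite start within that distance.

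Promoters were also searched on both strands for AGGTCA, the hexamer that many nuclear receptors bind, and for a direct repeat of it with 1 base between the copies, the arrangement bound by the fatty acid sensors of the PPAR family with their RXR partner. The hexamer was in 3 of the 8 promoters (Acadvl, Hadhb and Echs1) and in 15.68% of all promoters. No enzyme promoter held the exact repeat, which was in 0.05827% of all promoters. With up to 1 mismatch it was in the Acadvl promoter and in 0.4625% of all promoters. It lies 17 to 5 bases before the Acadvl start. The stretch printed around it is chr10:55236680-55236752 on the minus strand (GRCr8), with the repeat in capitals.
Acadvl, promoter stretch: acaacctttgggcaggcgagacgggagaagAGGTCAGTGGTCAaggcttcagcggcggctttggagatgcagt
With up to 2 mismatches, the Echs1 promoter held it too, as did 3.715% of all promoters. The same hexamer preceded by TCA, bound by estrogen-related receptors, was in none of the 8 and in 0.4116% of all. These matches are letters in a window and do not show binding.

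Genes received between 17125084 and 28116085 reads in a library, and an enzyme had between 1057 (Etfdh) and 22384 (Acadm) reads in a library. Levels are FPKM, read density per length of gene, which the authors had scaled between libraries. Dmd averaged 1.36 ± 0.545 FPKM in DMD_KD, 1.76 ± 0.208 in DMD_ND and 7.32 ± 3.32 in WT_ND (SD, n = 6, 6 and 4). The tissue was borne out as skeletal muscle, though the markers do not tell which muscle. Of 9 skeletal fibre markers, 8 were used: Acta1, Ckm, Mylpf, Tnnt3, Ttn, Des, Myh2 and Myh4, without Myh1. They summed to 26966 to 113159 FPKM in each library, and none was at 0. DMD_KD replicate 3 stood apart: on the second principal component it lay at -57.5, with the rest of its group between -10.2 and 10.2, and its fibre marker sum was 113159 FPKM, against 35175 to 52596 in the other DMD_KD libraries. Main values that rest on this library are also given without it. In WT_ND, replicates 1 and 4 lay apart from replicates 3 and 9 on that component (-14.0 and -18.8, against 30.1 and 25.3) and in fibre marker sum (111127 and 109305 FPKM, against 62007 and 59724).

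**Figure D1:**
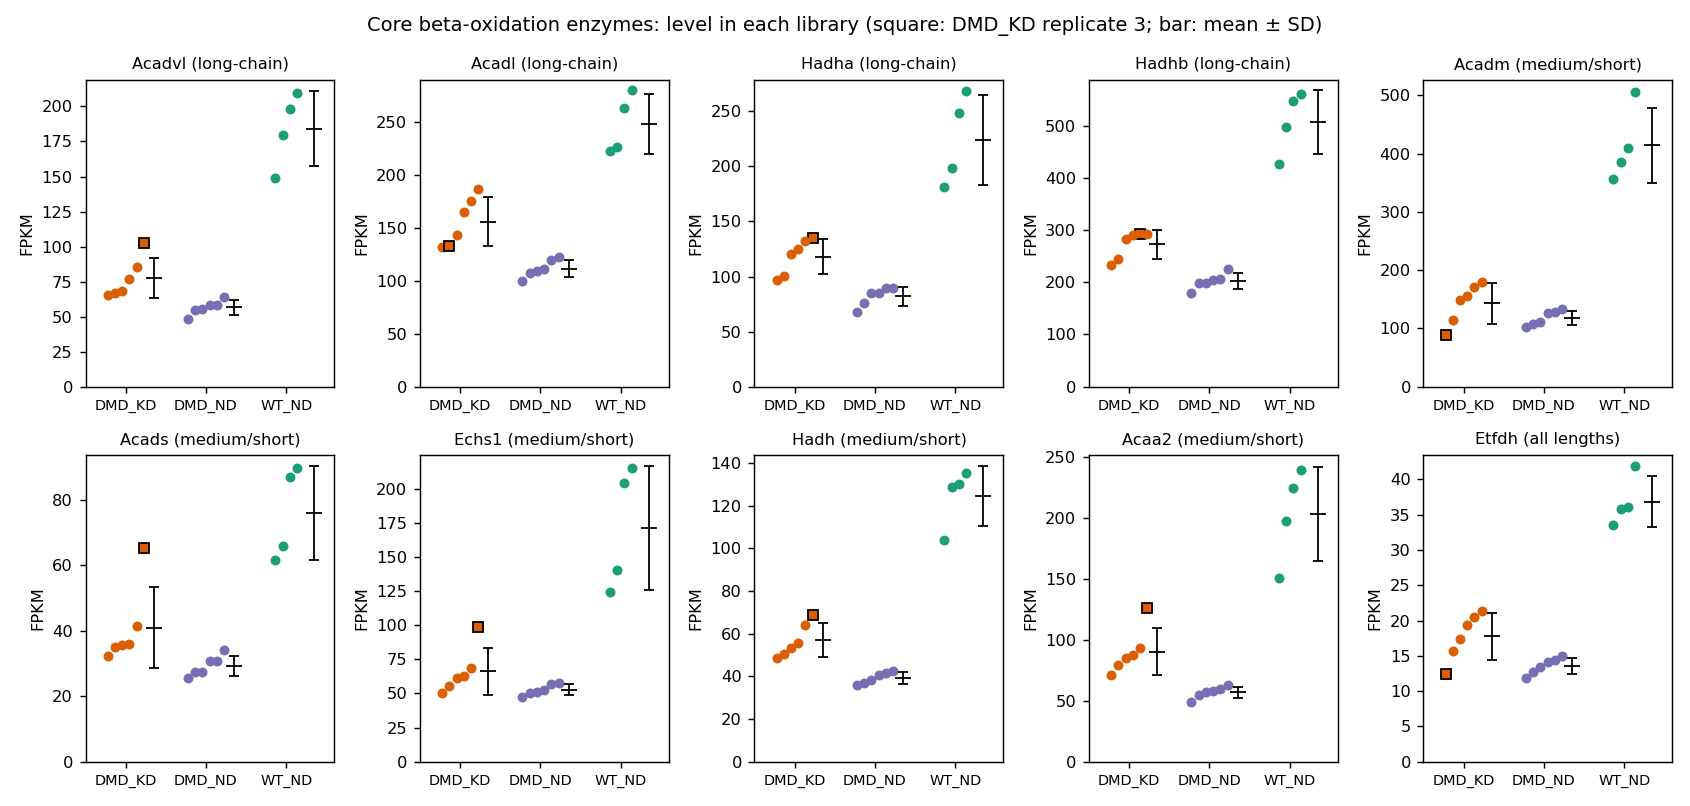
Level of each of the 10 enzymes in every library, in FPKM on axes that start at 0, with DMD_KD, DMD_ND and WT_ND side by side. Points are libraries, the outlined square is DMD_KD replicate 3, and bars are the mean ± SD. Every DMD_ND point lies below every WT_ND point in all 10 panels, and DMD_KD points lie above all DMD_ND points in 6 panels.

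The first comparison, DMD_ND against WT_ND, sets mutant against wild-type muscle on the normal diet. All 10 enzymes were lower in DMD_ND, by 2.21-fold (Acadl) to 3.49-fold (Acaa2). Each passed the test in that direction (limma, Benjamini-Hochberg adjusted p under 0.05 over 12119 genes), where 65.7% of all tested genes changed and 34.3% were lower. Scaled as TPM, 8 of the 10 passed as lower, where 720 of 12119 tested genes passed as lower and 8564 as higher. The median log2 fold change of the 10 was then -0.53, while the median of all tested genes moved to 0.83. As deposited, the enzymes' median log2 fold change was -1.53, and that of all tested genes was -0.04. The deposited scaling holds the median gene near no change. Among 6244 genes with a mean of at least 5 FPKM the median was -0.26, and 2884 of them passed as lower. Fold changes here were taken after adding 1 FPKM, so those of genes with low values are understated. In 10 of 10 enzymes no DMD_ND library reached any WT_ND library, which held for 28.3% of tested genes. RNA came from whole muscle, so fewer fibres and less RNA per fibre cannot be told apart.

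Of the long-chain enzymes, Acadvl (ENSRNOG00000018114; chromosome 10, 54732469 to 54738075, mRatBN7.2, minus strand) encodes very long-chain acyl-CoA dehydrogenase, which opens the cycle for the longest chains at the inner membrane. It was at 48.4, 56.8 and 64.0 FPKM in the lowest, median and highest DMD_ND library, against 209.9, 179.6, 198.1 and 148.6 FPKM in WT_ND replicates 1, 3, 4 and 9. The groups were far apart, with a log2 difference of -1.68 (SE 0.14, limma adjusted p = 2.62e-08). Acadl (ENSRNOG00000012966; chromosome 9, 68333980 to 68372220, minus strand), the long-chain dehydrogenase of the matrix, was at 100.1, 110.0 and 122.0 FPKM in the lowest, median and highest DMD_ND library, against 280.4, 262.7, 222.0 and 226.4 FPKM in the WT_ND libraries in the same order. This was the smallest fall among the 10, with a log2 difference of -1.14 (SE 0.13, limma adjusted p = 6.8e-07). Scaled as TPM it was -0.13 and did not pass (limma adjusted p = 0.549).

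Hadha (ENSRNOG00000024629; chromosome 6, 26187956 to 26227869, plus strand) encodes the subunit of the trifunctional protein that hydrates and dehydrogenates long chains. It was at 67.7, 85.3 and 89.7 FPKM in the lowest, median and highest DMD_ND library, against 268.3, 198.9, 248.4 and 181.5 FPKM in WT_ND, a log2 difference of -1.42 (SE 0.14, limma adjusted p = 1.88e-07). Hadhb (ENSRNOG00000010800; chromosome 6, 26153578 to 26184869, minus strand) encodes the thiolase subunit of the same complex and was the most abundant of the 10 transcripts in each group. It was at 179.3, 201.7 and 225.8 FPKM in DMD_ND, against 546.7, 496.5, 559.5 and 425.8 FPKM in WT_ND (log2 fold change -1.32, SE 0.12, limma adjusted p = 7.68e-08). The ratio of Hadhb to Hadha stayed in overlapping ranges, 2.15 to 2.43 in DMD_KD, 2.29 to 2.65 in DMD_ND and 2.04 to 2.50 in WT_ND.

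Among the medium- and short-chain enzymes, Acadm (ENSRNOG00000009845; chromosome 2, 242858865 to 242883147, minus strand) encodes the medium-chain dehydrogenase. It was at 102.0, 118.5 and 132.9 FPKM in the lowest, median and highest DMD_ND library, against 409.5, 505.4, 355.7 and 385.4 FPKM in WT_ND. Its log2 difference of -1.80 (SE 0.18, limma adjusted p = 1.88e-07) was, with that of Acaa2, the largest of the 10. Acads (ENSRNOG00000001177; chromosome 12, 41493626 to 41502898, plus strand), the short-chain dehydrogenase, was at 25.5, 28.9 and 34.0 FPKM in DMD_ND, against 86.9, 61.4, 89.7 and 65.9 FPKM in WT_ND. WT_ND replicates 1 and 4, the pair with the higher fibre marker sums, were the higher pair. They were also the higher pair for Acadvl, Hadha, Hadhb, Echs1, Hadh and Acaa2, and not for Acadl, Acadm and Etfdh. The log2 difference of Acads was -1.34 (SE 0.17, limma adjusted p = 3.47e-06).

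Echs1 (ENSRNOG00000064647; chromosome 1, 194895036 to 194903884, minus strand), the short-chain enoyl-CoA hydratase, was at 47.1, 51.7 and 57.8 FPKM in the lowest, median and highest DMD_ND library, against 203.8, 140.5, 215.3 and 124.1 FPKM in WT_ND. The same WT_ND replicates, 1 and 4, were high, and the log2 difference was -1.65 (SE 0.18, limma adjusted p = 5.87e-07). Hadh (ENSRNOG00000010697; chromosome 2, 219787927 to 219830353, minus strand) encodes the medium- and short-chain hydroxyacyl-CoA dehydrogenase. It was at 35.9, 39.6 and 42.7 FPKM in DMD_ND, against 135.5, 128.8, 130.3 and 103.9 FPKM in WT_ND (log2 fold change -1.63, SE 0.12, limma adjusted p = 5.32e-09). Acaa2 (ENSRNOG00000013766; chromosome 18, 68345012 to 68373249, plus strand) encodes the matrix thiolase that ends the cycle. It was at 48.7, 57.7 and 62.7 FPKM in DMD_ND, against 239.8, 197.9, 224.5 and 151.0 FPKM in WT_ND (log2 fold change -1.80, SE 0.16, limma adjusted p = 3.58e-08).

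Etfdh (ENSRNOG00000009538; chromosome 2, 164729749 to 164762745, minus strand), the electron transfer flavoprotein dehydrogenase, was the least abundant of the 10. It was at 11.8, 13.8 and 15.0 FPKM in the lowest, median and highest DMD_ND library, against 36.1, 42.0, 33.5 and 35.9 FPKM in WT_ND. It differed by -1.38 on the log2 scale (SE 0.13, limma adjusted p = 1.13e-07), and replicate 3 was the high WT_ND library here, as it was for Acadm. Scaled as TPM the difference was -0.42 and did not pass (limma adjusted p = 0.113). Etfdh overlaps Ppid on the opposite strand over 10473 bases, Echs1 overlaps Paox over 612 and Acadvl overlaps Dvl2 over 352. The sources used here do not say whether counting used the strand, and reads of such pairs may be mixed. Ppid averaged 7.85 FPKM, Paox 6.92 and Dvl2 2.57 over all libraries.

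The ranking of the 10 levels was the same in DMD_ND as in WT_ND: Hadhb, Acadm, Acadl, Hadha, Acaa2, Acadvl, Echs1, Hadh, Acads and Etfdh, from high to low. In DMD_KD it differed by a single exchange, with Acadl above Acadm. Neighbours in that order often had overlapping ranges. In DMD_ND, Acadm overlapped Acadl, and Acaa2, Acadvl and Echs1 overlapped one another, while the other neighbours were separate. In WT_ND the ranges of Hadhb and Acadm overlapped, as did those of each neighbouring pair from Acadl to Hadh. In DMD_KD, Hadhb at the top and Etfdh at the bottom were separate from their neighbours, and the other neighbouring pairs overlapped, Hadha with Acaa2 and Hadh with Acads only through DMD_KD replicate 3.

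Levels of other cell types' markers moved along with the genotype comparison. In DMD_ND against WT_ND, 6 of 8 skeletal fibre markers were lower (summed 26966 to 45728 FPKM in DMD_ND and 59724 to 111127 in WT_ND; median log2 fold change -1.26) and Mylpf and Des did not pass; scaled as TPM, 2 were lower and 2 higher. All 6 macrophage markers were higher (174 to 260 FPKM in DMD_ND, 12.9 to 33.8 in WT_ND), as were all 5 fibro-adipogenic progenitor markers (725 to 1105 in DMD_ND, 55.5 to 157 in WT_ND) and all 5 adipocyte markers (114 to 360 in DMD_ND, 38.8 to 102 in WT_ND). Of the brown adipocyte markers, Cidea was higher and Ucp1 was at 0 FPKM in every DMD_ND and WT_ND library. Slow fibre markers summed to 349 to 704 FPKM in DMD_ND and 362 to 778 in WT_ND, with 3 of 5 lower and 1 higher (0 and 2 when scaled as TPM). Endothelial markers summed to 30.4 to 43.8 FPKM in DMD_ND and 39.2 to 54.7 in WT_ND, with 2 of 4 lower (0 lower and 2 higher when scaled as TPM). The part of these cell types in the enzymes' fall was not tested.

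The second comparison, DMD_KD against DMD_ND, sets MCTKD against the normal diet in mutant muscle. No enzyme passed the test (limma, smallest adjusted p = 0.14), and only 1 of 12119 genes did (0.00825%), the muscle fatty acid carrier Fabp3, named after its value was seen (log2 fold change 1.06). All 10 fold changes were positive, except that Acadm turned to -0.026 when the values were scaled as TPM. The enzymes' median log2 fold change was 0.44, against -0.01 over all tested genes, which the deposited scaling holds near no change. At an unadjusted p under 0.05, 8 of 10 were higher, all but Acadm and Echs1, where 6.65% of tested genes were. In 6 enzymes every DMD_KD library exceeded every DMD_ND library, which held for 0.842% of tested genes.

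The long-chain enzymes had the narrower range of diet differences, 0.43 to 0.51 on the log2 scale, and in all 4 the groups did not overlap. Acadvl was at 65.4, 72.4 and 102.8 FPKM in the lowest, median and highest DMD_KD library, against 48.4, 56.8 and 64.0 in DMD_ND (log2 fold change 0.44, SE 0.13, limma adjusted p = 0.193). Acadl was at 132.3, 153.8 and 186.9 FPKM in DMD_KD, against 100.1, 110.0 and 122.0 in DMD_ND (0.47, SE 0.11, limma adjusted p = 0.14). The subunits of the trifunctional protein had like differences. Hadha was at 96.6, 122.6 and 134.9 FPKM in DMD_KD, against 67.7, 85.3 and 89.7 in DMD_ND (0.51, SE 0.13, limma adjusted p = 0.14). Hadhb was at 232.2, 287.3 and 292.7 FPKM in DMD_KD, against 179.3, 201.7 and 225.8 in DMD_ND (0.43, SE 0.11, limma adjusted p = 0.14).

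The medium- and short-chain enzymes spread more widely, between 0.24 (Acadm) and 0.64 (Acaa2) on the log2 scale. Acaa2 was at 71.3, 86.4 and 125.9 FPKM in DMD_KD, against 48.7, 57.7 and 62.7 in DMD_ND (0.64, SE 0.14, limma adjusted p = 0.14). Hadh was at 48.7, 54.4 and 68.8 FPKM in DMD_KD, against 35.9, 39.6 and 42.7 in DMD_ND (0.51, SE 0.11, limma adjusted p = 0.14). These were the pair of this class whose groups did not overlap. Acads was at 32.4, 35.9 and 65.2 FPKM in DMD_KD, against 25.5, 28.9 and 34.0 in DMD_ND (0.44, SE 0.15, limma adjusted p = 0.245), with 5 of 6 DMD_KD libraries above all DMD_ND libraries.

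Acadm was at 89.4, 151.4 and 180.4 FPKM in DMD_KD, against 102.0, 118.5 and 132.9 in DMD_ND (0.24, SE 0.16, 95% interval -0.09 to 0.58, limma adjusted p = 0.458). Its DMD_KD libraries lay on either side of the others: 4 above all of DMD_ND and 1, replicate 3, below all of it. Echs1 was at 50.2, 61.8 and 98.7 FPKM in DMD_KD, against 47.1, 51.7 and 57.8 in DMD_ND (0.29, SE 0.16, 95% interval -0.05 to 0.64, limma adjusted p = 0.396), with 4 of 6 DMD_KD libraries above all of DMD_ND. Etfdh was at 12.4, 18.4 and 21.3 FPKM in DMD_KD, against 11.8, 13.8 and 15.0 in DMD_ND (0.35, SE 0.12, limma adjusted p = 0.235), with 5 of 6 above.

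Without DMD_KD replicate 3, every DMD_KD library exceeded every DMD_ND library in 7 enzymes, Etfdh being added (1.16% of tested genes), and 9 were higher at an unadjusted p under 0.05, Acadm being added (5.39% of tested genes). The fold changes of the enzymes in which that library was highest were then smaller, 0.17 for Echs1 and 0.30 for Acads, and those in which it was low were larger, 0.37 for Acadm and 0.44 for Etfdh. None passed the test (smallest limma adjusted p = 0.15). When limma weighted each library by its estimated quality, which gave replicate 3 a weight of 0.129, 6 enzymes passed: Acaa2, Acadl, Etfdh, Hadh, Hadha and Hadhb (adjusted p between 0.0296 and 0.0444). With the same weighting and replicate 3 left out, 4 passed, Acaa2, Acadl, Etfdh and Hadh. Of 12119 tested genes, 93 passed with the weights, 51 of them higher. With replicate 3 left out as well, 28 passed, 17 of them higher. The call for the diet thus turned on how libraries were weighted.

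**Figure D2:**
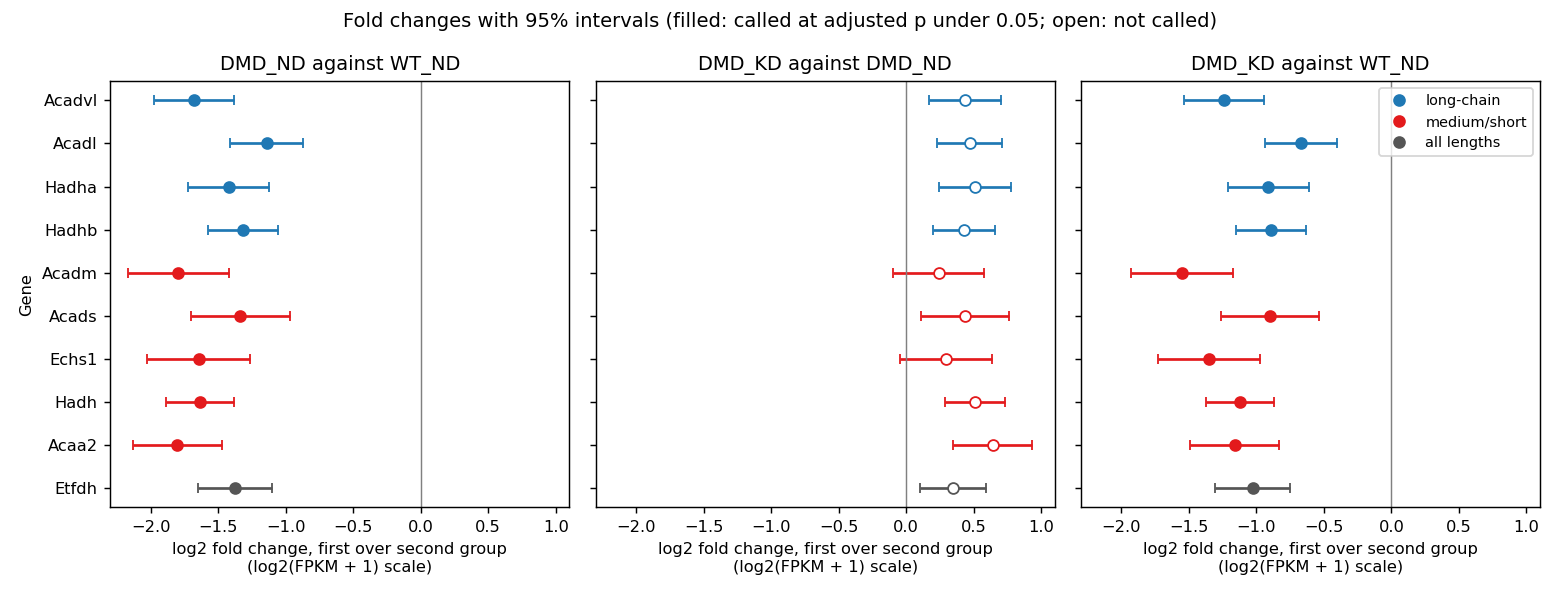
Log2 fold change of each enzyme in the 3 comparisons, on the log2(FPKM + 1) scale with 95% intervals, coloured by chain-length class; filled points passed the test and open points did not. All 10 are below 0 against WT_ND and above 0 for DMD_KD against DMD_ND, where the intervals of Acadm and Echs1 include 0; scaled as TPM, Acadm turned to -0.026 in DMD_KD against DMD_ND and Acadl to 0.070 in DMD_KD against WT_ND.

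Unlike slow fibre markers, skeletal fibre markers pointed the same way as the enzymes in the diet comparison. All 8 had a positive fold change (7 when scaled as TPM; median 0.42, and 0.30 without DMD_KD replicate 3) and none passed, and the marker sum was 35175 to 113159 FPKM in DMD_KD (at most 52596 without replicate 3) and 26966 to 45728 in DMD_ND. None of 5 adipocyte markers was positive (50.9 to 211 FPKM in DMD_KD, at least 103 without replicate 3, and 114 to 360 in DMD_ND). Nor was any of 5 fibro-adipogenic progenitor markers (494 to 837 in DMD_KD, at least 563 without replicate 3, and 725 to 1105 in DMD_ND). Macrophage markers summed to 152 to 260 FPKM in DMD_KD and 174 to 260 in DMD_ND, slow fibre markers to 322 to 640 and 349 to 704, and endothelial markers to 35.1 to 44.7 and 30.4 to 43.8, in the same group order. Without replicate 3 the slow fibre sum was at most 460 FPKM in DMD_KD. No marker passed. Their part in the enzymes' differences was not tested.

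The third comparison set DMD_KD against WT_ND and shares libraries with both others, so the 3 sets of values are given side by side and not related to each other. All 10 enzymes were lower in DMD_KD and passed, where 58.3% of tested genes changed and 31.1% were lower. Among 6244 genes with a mean of at least 5 FPKM, 2648 passed as lower. Scaled as TPM, however, 5 enzymes passed as lower and Acadl turned to 0.070. With that scaling, 573 of 12119 tested genes passed as lower and 6930 as higher. The log2 fold changes lay between -1.55 for Acadm (limma adjusted p = 1.55e-06) and -0.67 for Acadl (limma adjusted p = 0.000255), with -1.35 for Echs1, -1.24 for Acadvl, -1.16 for Acaa2, -1.12 for Hadh, -1.03 for Etfdh, -0.91 for Hadha, -0.90 for Acads and -0.89 for Hadhb. In 9 of 10 no DMD_KD library reached a WT_ND library (17.3% of tested genes). The exception was Acads, which was at 65.2 FPKM in DMD_KD replicate 3 and at 61.4 in the lowest WT_ND library. Without that DMD_KD library all 10 were separate (26.3% of tested genes).

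Long- and medium- or short-chain enzymes were then compared as classes, as a description with no test. Both classes were lower in the mutant, and the medium- and short-chain class had the larger mean fold change. The mean log2 fold change in DMD_ND against WT_ND was -1.39 for the long-chain enzymes and -1.64 for the medium- and short-chain enzymes, a difference of 0.25. For DMD_KD against DMD_ND the means were 0.46 and 0.43, a difference of 0.036, and for DMD_KD against WT_ND they were -0.93 and -1.22, a difference of 0.29. Single libraries of a group spread by 0.0817 (pooled SD) in this measure. The diet difference was smaller than that and both differences from WT_ND were larger, but this SD is not the error of a difference between groups. Enzymes of 1 class also differed: in DMD_ND against WT_ND, from -1.68 to -1.14 among the long-chain and from -1.80 to -1.34 among the medium- and short-chain enzymes.

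Library by library, the mean log2 level of the long-chain enzymes minus that of the medium- and short-chain enzymes was 0.802, 0.950 and 1.137 in the lowest, median and highest DMD_KD library and 0.852, 0.926 and 1.018 in DMD_ND. It was 0.693, 0.686, 0.614 and 0.709 in WT_ND replicates 1, 3, 4 and 9. Every mutant library was above every wild-type library, and the mutant groups overlapped. Replicate 3 was the lowest DMD_KD library, and without it the DMD_KD mean was 0.996 ± 0.0946 (SD, n = 5), against 0.964 ± 0.116 with it (SD, n = 6).

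The classes were not uniform. Acadvl, a long-chain enzyme, was lower in DMD_ND by more than Acads, Hadh and Echs1 of the other class (-1.68 against -1.34, -1.63 and -1.65), and Acads by less than Hadha of the long-chain class (-1.42). For the 4 acyl-CoA dehydrogenases alone, the class difference in DMD_ND against WT_ND was 0.157, and by library Acadvl and Acadl minus Acadm and Acads spanned 0.448 to 0.608 in DMD_KD, 0.330 to 0.553 in DMD_ND and 0.198 to 0.359 in WT_ND. DMD_ND and WT_ND thus overlapped in this measure, as did DMD_KD and DMD_ND, while every DMD_KD library was above every WT_ND library. It averaged 0.540 ± 0.0670 in DMD_KD, 0.427 ± 0.0904 in DMD_ND and 0.270 ± 0.0719 in WT_ND (SD, n = 6, 6 and 4). Without DMD_KD replicate 3 the DMD_KD mean was 0.526 ± 0.0649 (SD, n = 5). The diet gap was thus wider for the dehydrogenases alone than the 0.036 of the whole classes.

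The makeup of the dehydrogenase step differed mainly in Acadl and Acadm. The 4 dehydrogenases summed to 417.5 ± 48.4 FPKM in DMD_KD, 315.3 ± 24.4 in DMD_ND and 921.9 ± 89.7 in WT_ND (SD, n = 6, 6 and 4). Acadl made up 37.3 ± 2.84% of that sum in DMD_KD, 35.4 ± 2.43% in DMD_ND and 26.9 ± 1.27% in WT_ND, while Acadm made up 34.0 ± 5.84%, 37.4 ± 1.71% and 44.8 ± 4.32% in the same groups. The ratio of Acadl to Acadm did not overlap between mutants and wild type, at 0.911 to 1.487 in DMD_KD, 0.844 to 1.086 in DMD_ND and 0.520 to 0.685 in WT_ND. Its highest value was DMD_KD replicate 3, and the next was 1.21. Acadvl held 18.8 ± 3.95% in DMD_KD, 17.9 ± 0.714% in DMD_ND and 20.0 ± 2.51% in WT_ND, and Acads 9.95 ± 3.42%, 9.25 ± 0.360% and 8.31 ± 1.78%, with overlapping ranges. Without DMD_KD replicate 3 the DMD_KD shares were 17.2 ± 1.49% for Acadvl, 37.9 ± 2.63% for Acadl, 36.2 ± 2.38% for Acadm and 8.60 ± 0.985% for Acads (SD, n = 5), so that those of Acadvl and Acads lay below the DMD_ND means and not above them.

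**Figure D3:**
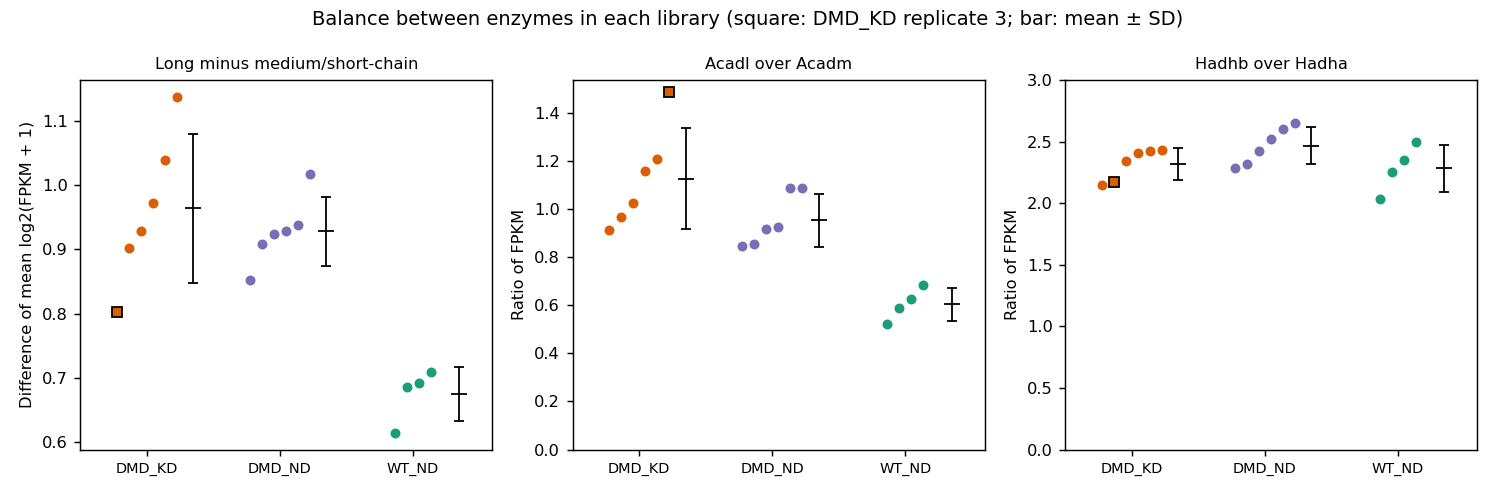
Balance between enzymes in each library of DMD_KD, DMD_ND and WT_ND: the mean log2(FPKM + 1) of long-chain minus medium- and short-chain enzymes (axis not starting at 0), the ratio of Acadl to Acadm and the ratio of Hadhb to Hadha. Points are libraries, the outlined square is DMD_KD replicate 3, and bars are the mean ± SD. Mutant libraries lie above all WT_ND libraries in the first 2 panels (0.802 or higher, against 0.709 or lower; 0.844 or higher, against 0.685 or lower), and the groups overlap in the third.

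In some libraries, the enzymes did not move as a block by chain length. In DMD_KD replicate 3, the log2 level was above the group mean for Acads (by 0.70), Echs1 (0.60), Acaa2 (0.50), Acadvl (0.42), Hadh (0.28), Hadha (0.20) and Hadhb (0.11), and below it for Acadm (-0.63), Etfdh (-0.47) and Acadl (-0.22). This library was the highest of its group for the first 6 of these and the lowest for Acadm and Etfdh. Its ratio of Acadm to Acads was 1.37, the lowest of all libraries. In WT_ND, replicate 3 was above the group mean for Acadm (0.30) and Etfdh (0.19) and below it for Acads (-0.28) and Echs1 (-0.24). In both libraries these departures split the medium- and short-chain class, with Acadm on one side and Acads and Echs1 on the other. Acaa2 was on the side of Acads in the DMD_KD library and near the group mean in the WT_ND library (-0.017). Some other libraries were split the same way. Acadm, Acads and Echs1 were at -0.21, 0.26 and 0.37 in WT_ND replicate 4, and at 0.15, -0.18 and -0.36 in DMD_KD replicate 10. The split was not in every library: each enzyme was above the group mean in DMD_ND replicate 3 and below it in DMD_ND replicate 9.

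**Figure D4:**
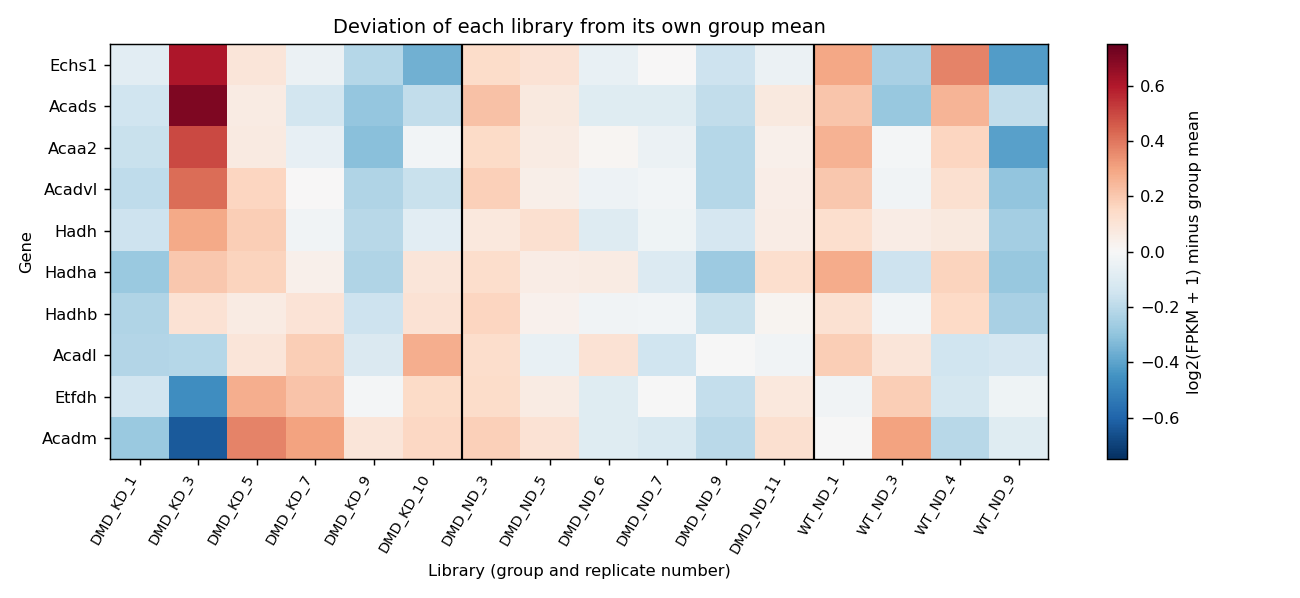
Departure of each library from the mean of its own group, as log2(FPKM + 1), for the 10 enzymes (rows) in the 16 libraries (columns, with lines between DMD_KD, DMD_ND and WT_ND). Red is above and blue is below the group mean. DMD_KD replicate 3 is the strongest column, from 0.70 for Acads at one end to -0.63 for Acadm at the other.

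Over the 16 libraries, likeness between enzymes was measured as the root-mean-square distance between log2 profiles, each centred on its own mean. Hadha and Hadhb were each other's nearest enzyme (0.0962). The closest pair of all, Acadvl and Hadh (0.0831), joined a long-chain with a medium- and short-chain enzyme, and Acaa2 (0.112) and Echs1 (0.139) were also nearest to Acadvl. Acadm was nearest to Etfdh (0.226) and was the farthest enzyme from 7 of the other 9. The profiles share the group differences and the libraries, so these distances are a description.

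Other genes of fatty acid oxidation were read from lists chosen by function. Of 6 carnitine shuttle genes, 5 were lower in DMD_ND than in WT_ND and 1 was higher (3 and 1 when scaled as TPM), and the list's median log2 fold change was -1.17. Crat, which makes acetylcarnitine in the matrix, averaged 68.7 ± 9.52 FPKM in DMD_ND and 259.7 ± 62.8 in WT_ND (SD, n = 6 and 4; log2 fold change -1.88, limma adjusted p = 9.97e-07). Cpt2, which re-forms acyl-CoA inside the mitochondrion, averaged 20.4 ± 2.32 and 70.1 ± 15.4 FPKM in the same groups (-1.72, limma adjusted p = 1.25e-07). The carrier Slc25a20 (-1.27), the muscle isoform Cpt1b (-1.07) and the plasma membrane carnitine transporter Slc22a5 (-0.89) were lower too. Cpt1a, the liver isoform, averaged 2.99 ± 0.702 FPKM in DMD_ND and 1.99 ± 0.462 in WT_ND and passed as higher (0.41, limma adjusted p = 0.0385), a call lost in 9 of 16 alternatives (adjusted p between 0.000686 and 0.148 over all of them). For DMD_KD against DMD_ND all 6 were positive (4 when scaled as TPM; median 0.37) and none passed, while with library weights Cpt2 was higher.

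All 10 genes of electron transfer and auxiliary steps were lower in DMD_ND than in WT_ND (median -1.04), but scaled as TPM 2 were lower and 1 was higher. For the diet all 10 were positive (6 when scaled as TPM; median 0.33) and none passed, while with library weights Decr1 and Eci2, named after their values were seen, were higher. The 4 most abundant were Acat1, the mitochondrial acetoacetyl-CoA thiolase (-1.36 in DMD_ND against WT_ND), Etfa, a subunit of the flavoprotein that feeds Etfdh (-0.97), Eci1, an enoyl-CoA isomerase for unsaturated chains (-1.27), and Hsd17b10, a hydroxyacyl-CoA dehydrogenase (-1.23). Etfa had the smallest diet difference of the list, at 56.0 ± 11.9 FPKM in DMD_KD and 53.4 ± 3.71 in DMD_ND (0.04, limma adjusted p = 0.909). All 4 acyl-CoA dehydrogenases of amino acid breakdown were lower in DMD_ND than in WT_ND (median -1.10), 1 of them when scaled as TPM: Ivd by -1.83, Acadsb by -1.36, Acad8 by -0.83 and Gcdh by -0.74. For the diet 3 of these 4 were positive (1 when scaled as TPM; median 0.11) and none passed, with Acadsb at -0.16.

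Of 8 regulators of the pathway, 6 were lower in DMD_ND than in WT_ND, Pparg was higher and Nrf1 did not pass, a pair named after their values were seen; scaled as TPM, 3 were lower and 2 higher. The 4 most abundant were all lower: Tfam, which maintains mitochondrial DNA (-0.60), the fatty acid receptor Ppard (-0.93), the estrogen-related receptor Esrra (-1.20) and the coactivator Ppargc1a (-1.77). Ppargc1a averaged 1.23 ± 0.485 FPKM in DMD_ND and 6.78 ± 2.73 in WT_ND (limma adjusted p = 1.14e-06). For the diet 7 of 8 were positive (4 when scaled as TPM; median 0.15) and none passed.

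As a yardstick, 14 mitochondrial genes outside beta-oxidation were read the same way. In DMD_ND against WT_ND 13 were lower (11, and 1 higher, when scaled as TPM), with a median of -1.49, close to the -1.53 of the beta-oxidation enzymes, and Tomm20, named after its value was seen, did not pass (-0.0049, limma adjusted p = 0.974). Abundant genes among them were the ATP synthase subunits Atp5f1b (-1.70) and Atp5f1a (-1.77) and the complex III core protein Uqcrc1 (-1.76). For DMD_KD against DMD_ND 13 of 14 were positive (11 when scaled as TPM; median 0.36, against 0.44 for the enzymes) and none passed. Reads from the mitochondrial chromosome were 15.6 ± 1.004% of DMD_KD, 13.1 ± 0.776% of DMD_ND and 23.0 ± 2.41% of WT_ND libraries. The fall of the enzymes is therefore not shown to be particular to beta-oxidation.

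**Figure D5:**
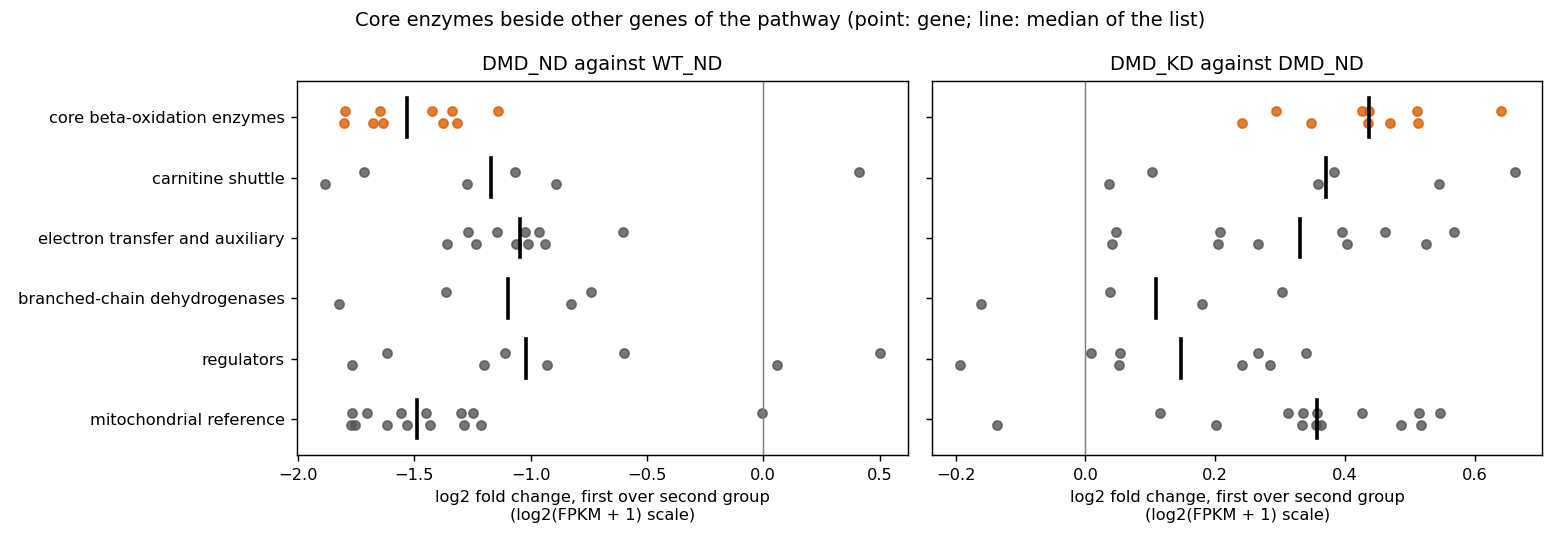
Log2 fold change of each gene (points) and the median (lines) for the 10 enzymes and 5 lists of related genes, for DMD_ND against WT_ND and for DMD_KD against DMD_ND, on the log2(FPKM + 1) scale. Medians against WT_ND are -1.53 for the enzymes and -1.49 for the 14 other mitochondrial genes, and those of the other lists lie between -1.17 and -1.02. No gene in the right panel passed the test, and Acadm turned to -0.026 there when scaled as TPM.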

How the data were processed

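RNA of frozen tibialis anterior muscle was captured by its poly-A tails and sequenced, per the labels' protocols. Per the submitters' processing notes, the build was mRatBN7.2 and the tools included featureCounts 1.5.0-p3 and HISAT2 2.0.5. Neither the annotation release, the read filters nor the strand setting is given in the sources used here. The authors deposited FPKM values for 31141 genes in 16 libraries. Multiplied by gene length and divided by a fitted worth of a read, 100% of the values checked lay within 0.05 of whole reads. Only lower counts were checked, and every enzyme value, at 1057 reads or more, was above them. The library sizes followed median-of-ratios size factors, which hold the typical gene near no change between libraries. These factors were 0.768 to 1.54 in DMD_KD, 0.971 to 1.34 in DMD_ND and 0.524 to 0.895 in WT_ND. Whether this scaling or TPM is nearer to the RNA of the muscle was not tested.

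The 12119 genes that reached 1 FPKM in 4 or more libraries were log2-transformed after adding 1 and tested with limma (version 3.58.1, R 4.3.3), in 1 model of group means over all libraries (13 residual degrees of freedom, eBayes with trend and robust). Two-sided p-values were Benjamini-Hochberg adjusted over all tested genes, called under 0.05. The procedure was tested on simulated data. Samples were grouped by genotype and diet labels. The 7743 genes without a symbol were tested and not named. Alternatives were a pseudocount of 0.1, no filter, a mean of at least 5 FPKM, TPM scaling, only the groups compared, library weights, a replicate block and leaving out each library.

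The enzymes, classes, gene lists and markers were chosen with earlier results of these data known. Named are the enzymes, Dmd, every gene of the related-gene lists of up to 6, the 4 most abundant of longer ones, some cell type markers and the 5 genes with the nearest profiles. A gene that this rule selects is not reported here.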

Additional observations from a re-analysis of the deposited data

Results flagged for a closer look

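Acads was at 65.18 FPKM in DMD_KD replicate 3, a sample far from the others of its group: the next DMD_KD library was at 41.44 and the lowest at 32.36 FPKM. The gap made up 0.723 of the group's range, above the critical value of 0.625 for 6 samples. It was the only such value in 36 groups tested, a rule that by chance marks about 1 group in 20. The same library stood apart on the second principal component, and its part in the Acads level was not tested.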

How the results depend on the processing

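For DMD_ND against WT_ND, 10 enzymes passed under every alternative run except TPM scaling, under which 8 did (not Acadl, adjusted p = 0.549, nor Etfdh, adjusted p = 0.113). For DMD_KD against WT_ND, 10 passed under each except TPM scaling, with 5 (Acaa2, Acadm, Acadvl, Echs1 and Hadh) and Acadl at 0.070 (adjusted p = 0.773). For DMD_KD against DMD_ND, 6 passed with library weights, 4 with weights and DMD_KD replicate 3 left out (an alternative chosen after seeing the data, as were the other counts without that library) and 0 under the others, where TPM scaling put Acadm at -0.026 (adjusted p = 0.942). Library weights called 93 genes in all (51 higher, 42 lower), against 1 without weights and 28 with weights and replicate 3 left out. Leaving out DMD_KD replicate 9 gave 7 genes and DMD_ND replicate 7 gave 2, with no enzyme among them. TPM scaling raised the median gene's log2 fold change to 0.83 in DMD_ND against WT_ND, to 0.56 in DMD_KD against WT_ND and put it at -0.24 in DMD_KD against DMD_ND. Relative to that median gene the enzymes' medians were -1.35, -0.91 and 0.42, with all 10 on the same side in each. It also turned the calls to 8564 higher and 720 lower in DMD_ND against WT_ND (3815 and 4152 as deposited) and to 6930 and 573 in DMD_KD against WT_ND (3304 and 3764). The class difference in DMD_ND against WT_ND was 0.157 for the dehydrogenases alone, and 0.232 to 0.268 with each library left out in turn. It was 0.0011 to 0.068 for DMD_KD against DMD_ND and 0.254 to 0.321 for DMD_KD against WT_ND on leaving out libraries. For the dehydrogenases alone the diet gap was wider, with a mean balance of 0.540 in DMD_KD and 0.427 in DMD_ND. The replicate block gave a class difference of 0.195 for DMD_ND against WT_ND (10 enzymes passing), 0.028 for DMD_KD against DMD_ND (0 passing) and 0.222 for DMD_KD against WT_ND (10 passing). Same-numbered DMD_KD and DMD_ND libraries deviated together with r of 0.0858, 0.0163, 0.0188 and 0.23 for numbers 3, 5, 7 and 9. Same-numbered pairs with WT_ND lay between -0.656 (DMD_KD, number 3) and 0.407 (DMD_KD, number 9). What a shared number stands for was not tested. At least 1057 reads stood behind each enzyme value.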

Other observations

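Outside the 10 enzymes, the 5 genes whose log2 profile over the 16 libraries lay nearest to the enzymes' mean profile, among 5836 named genes with a mean of at least 5 FPKM, were Epas1 (root-mean-square distance 0.110), Aldh5a1 (0.117), Acat1 (0.123), Cs (0.124) and Ghitm (0.125). Among the enzymes themselves the distance to that mean was lowest for Hadh (0.0763) and highest for Acadm (0.315). Epas1 encodes a hypoxia-inducible transcription factor and averaged 28.6 ± 2.10 FPKM in DMD_KD, 22.1 ± 1.35 in DMD_ND and 65.7 ± 6.56 in WT_ND (SD, n = 6, 6 and 4). Cs, the citrate synthase often used as a measure of mitochondrial content, averaged 140.0 ± 19.3, 108.6 ± 9.89 and 267.3 ± 32.1 FPKM in the same groups. The genes were picked for their likeness, so their values are a description.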
